A study of Homo sapiens with 4 samples.

Results

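Peaks at 40 cell-cycle and DNA replication genes were examined in 4 lists of open chromatin from Huh7, a human cell line established from a liver cancer. A peak belonged to a gene when the deposited list gave that gene as its nearest. By this rule the 40 genes held 59 of 44760 peaks in shARID1A cells in rapamycin, 54 of 45700 in shARID1A cells in DMSO, 60 of 49783 in shControl cells in rapamycin and 61 of 52192 in shControl cells in DMSO. CCND2 and CDKN2A were the nearest gene of no peak in any list, and the other 38 genes were named in at least 1.

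The assay was ATAC-seq, which uses a transposase to tag DNA that is not covered by nucleosomes. Cells expressed a short hairpin RNA against ARID1A, a DNA-binding subunit of the SWI/SNF chromatin remodeller, or a control hairpin. Both kinds of cell received 100 nM rapamycin, an inhibitor of the growth kinase complex mTORC1, or DMSO, for 6 h. Each of the 4 groups was 1 library from the nuclei of 50000 cells grown in serum, so there were no replicate cultures to judge a difference by, and no difference was tested. Whether the hairpin cells were 1 clone or a pool is not given in the labels, and the read depth was unknown.

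Of the whole lists, promoter peaks made up 12823 and 13067 peaks in the shARID1A lists in rapamycin and DMSO, and 12933 and 13050 in the shControl lists. The numbering of peaks skipped 6666 numbers (12.7%) in shARID1A DMSO and 1093 numbers (2.15%) in shControl rapamycin, so a peak missing from those lists was not shown to be closed. As a check of the cell type, promoter peaks of marker genes were counted by nearest-gene name or by position at a listed start site. Of 15 hepatocyte markers 9 had one in both shARID1A lists and 10 in both shControl lists. None of 5 endothelial markers had one in any list, 2 to 3 of 8 leukocyte markers had one, and 2 to 3 of 6 fibroblast and stellate cell markers had one. By position alone, 4 to 5 of 9 hepatocyte markers with a listed start site had one, and ALB, AFP, APOA2 and FGB had none in any list. Of 5 such leukocyte markers 1 had one in each list. The check was thus mixed.

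The genes cover the course of a division cycle. D-type cyclins with CDK4 and CDK6 phosphorylate the retinoblastoma protein RB1, which releases E2F factors, and E2F switches on cyclin E, cyclin A and the replication genes. CDC6 and CDT1 load the MCM helicase on replication origins, and PCNA clamps the polymerase to DNA. Later in the cycle, B-type cyclins with CDK1 drive mitosis, and their genes are repressed in resting cells by the DREAM complex, which binds the cell cycle homology region (CHR). CDK inhibitors of the CIP/KIP and INK4 families hold the kinases back.

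Promoter sequences of 6 genes are printed, since the roles differed in the motifs that they held and since 3 of these promoters, at PLK1, CDT1 and CDKN1A, recur in the results. Each runs 5′ to 3′ along the gene's strand, from 250 bases before to 50 after the transcription start site (TSS), and comes from RefSeq on GRCh38.p14. Capitals mark the motifs searched on both strands, which were the E2F sites TTTCCCGC, TTTGGCGC, TTTCGCGC and TTTGCCGC, the CHR TTTGAA and the CCAAT box of the factor NF-Y. On opposite strands 2 E2F words can overlap in 1 site, as at both E2F sites of MCM6. CDKN1A held none of the words.
MCM6 (chr2:135876394-135876693, minus strand): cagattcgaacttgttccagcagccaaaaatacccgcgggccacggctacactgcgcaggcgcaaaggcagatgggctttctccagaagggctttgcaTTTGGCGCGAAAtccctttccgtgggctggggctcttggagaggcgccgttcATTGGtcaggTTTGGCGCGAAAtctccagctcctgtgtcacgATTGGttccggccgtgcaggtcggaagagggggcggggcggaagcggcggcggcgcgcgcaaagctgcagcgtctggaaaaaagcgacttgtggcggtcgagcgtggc
CDT1 (chr16:88803539-88803838, plus strand): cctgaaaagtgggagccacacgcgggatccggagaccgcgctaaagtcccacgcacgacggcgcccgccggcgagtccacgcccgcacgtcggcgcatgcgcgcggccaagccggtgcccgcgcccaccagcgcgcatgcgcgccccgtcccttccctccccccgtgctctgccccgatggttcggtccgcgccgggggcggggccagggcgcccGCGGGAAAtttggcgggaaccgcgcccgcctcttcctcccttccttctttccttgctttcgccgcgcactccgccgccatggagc
CDK1 (chr10:60778081-60778380, plus strand): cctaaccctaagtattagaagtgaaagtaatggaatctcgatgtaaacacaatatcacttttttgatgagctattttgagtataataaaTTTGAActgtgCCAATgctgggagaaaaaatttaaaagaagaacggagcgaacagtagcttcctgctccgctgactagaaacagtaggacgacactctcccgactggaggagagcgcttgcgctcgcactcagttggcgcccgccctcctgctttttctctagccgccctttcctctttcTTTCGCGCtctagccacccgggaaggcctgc
CCNB2 (chr15:59104896-59105195, plus strand): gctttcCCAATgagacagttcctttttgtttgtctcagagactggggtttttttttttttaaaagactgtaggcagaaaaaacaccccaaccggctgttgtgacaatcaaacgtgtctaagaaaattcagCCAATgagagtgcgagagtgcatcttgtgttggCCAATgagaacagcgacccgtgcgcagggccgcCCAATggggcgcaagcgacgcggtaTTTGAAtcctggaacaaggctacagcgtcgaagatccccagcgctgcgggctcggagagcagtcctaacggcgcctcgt
PLK1 (chr16:23678639-23678938, plus strand): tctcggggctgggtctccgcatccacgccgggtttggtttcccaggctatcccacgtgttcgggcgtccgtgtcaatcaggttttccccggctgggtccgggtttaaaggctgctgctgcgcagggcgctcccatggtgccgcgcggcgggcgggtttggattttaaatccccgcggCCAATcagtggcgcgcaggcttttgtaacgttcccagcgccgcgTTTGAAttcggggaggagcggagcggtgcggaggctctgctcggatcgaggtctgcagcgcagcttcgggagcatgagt
CDKN1A (chr6:36678464-36678763, plus strand): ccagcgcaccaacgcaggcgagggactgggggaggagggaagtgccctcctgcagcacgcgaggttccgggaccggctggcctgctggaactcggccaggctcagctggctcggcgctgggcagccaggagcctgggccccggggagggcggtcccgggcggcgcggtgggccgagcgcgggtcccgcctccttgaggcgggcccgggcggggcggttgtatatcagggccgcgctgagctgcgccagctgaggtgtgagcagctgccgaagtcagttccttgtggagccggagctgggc

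MCM6, a helicase subunit, held its E2F words at -152 to -141 and at -90 to -79, counted from the TSS base as 0. CDT1, a helicase loader, held 1 E2F word at -35 to -28. CDK1, the mitotic kinase, held a CHR at -161 to -156 and a CCAAT box at -150 to -146. PLK1, a mitotic kinase, and CCNB2, a B-type cyclin, both held the CHR at -29 to -24, and their nearest upstream CCAAT boxes began at -73 in PLK1 and at -54 in CCNB2.

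RefSeq promoters were at hand for 31 members, of which 30 overlapped a peak in all 4 lists. Of these 30, 12 (40%) held an E2F word, 7 (23.3%) a CHR and 20 (66.7%) a CCAAT box. Among all 12202 promoters of the same length that were open in all 4 lists, 5.71% held an E2F word, 8.92% a CHR and 36.3% a CCAAT box.

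The words differed by the roles of the genes. All 7 replication promoters examined, of MCM2, MCM3, MCM6, MCM7, CDT1, CDC6 and PCNA, held an E2F word, and none held a CHR. All 3 E2F promoters, of E2F1, E2F2 and E2F3, held an E2F word as well, and that of E2F3 held a CHR. Of the 3 promoters of the E- and A-type cyclin group, that of CDC25A held an E2F word, those of CCNE1 and CCNA2 held none, and none of the 3 held a CHR. Of 9 mitosis and proliferation promoters, 6 held a CHR, of CDC20, CDK1, MKI67, CCNB2, PLK1 and TOP2A, all 9 held a CCAAT box and 1, of CDK1, held an E2F word. The 5 promoters of CDK inhibitors held neither an E2F word nor a CHR, and 1, of CDKN1B, held a CCAAT box. The 3 promoters of the D-type cyclin group held neither an E2F word nor a CHR. A match describes these letters and no binding was measured. The promoter searched was not always the place of the strongest peak, whose rank is given below. At CDKN2C it was chr1:50960495-50960794, while the strongest peak lay at other CDKN2C TSS, at chr1:50968126-50970226 in shARID1A rapamycin. At PCNA it was chr20:5126573-5126872, while the strongest peak in the shControl lists lay at the downstream TSS.

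**Figure D1:**
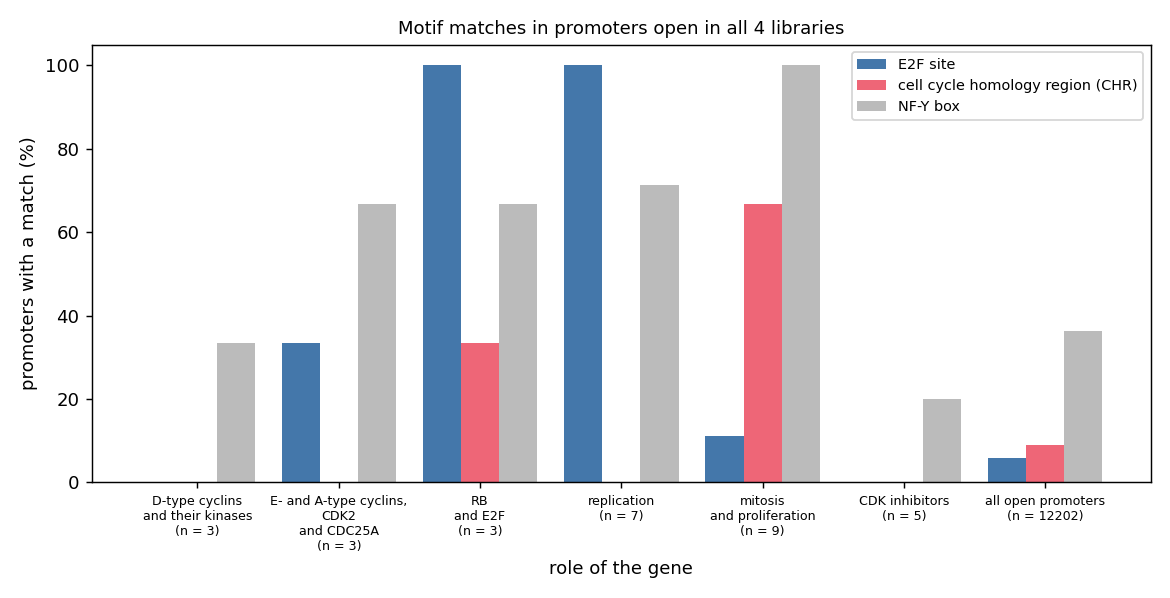
Share of 300-base promoters with at least 1 match (vertical axis, percent) by role of the gene, for promoters open in all 4 libraries, with the number of promoters under each group. E2F sites reach 100% of the 7 replication promoters, against 5.71% of all open promoters, and the CHR reaches 66.7% of the 9 mitosis and proliferation promoters, against 8.92%.

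Nearly every member had an open promoter. By the nearest-gene name, 34 of 40 had a promoter peak, centred within 1000 bp of the TSS, in shARID1A rapamycin, 30 in shARID1A DMSO, 36 in shControl rapamycin and 33 in shControl DMSO. Most of the missing genes had a peak under another name, at divergent promoters shared with other genes. The peak over the MCM7 TSS, for instance, was named AP4M1 in 3 lists, that over the RB1 TSS was named RB1-DT in shARID1A DMSO, and that over the CDKN2A TSS carried the name CDKN2B-AS1 or AL449423.1 in all 4 lists.

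When peaks were taken by position instead, as the strongest peak within 200 bp of a member's TSS, 38, 39, 38 and 39 members had one, in shARID1A rapamycin, shARID1A DMSO, shControl rapamycin and shControl DMSO. In all 4 lists 37 members had one. Of the 39 members with a promoter peak in any list this was 94.9%, beside 87.5% of all 14133 such genes. Single genes are given by position from here on.

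The exceptions were 3 genes. CCND2, a D-type cyclin, had no promoter peak in any list. CCNE2, an E-type cyclin, ranked within the strongest 18.3%, 16.2% and 12.9% of peaks in shARID1A rapamycin, shARID1A DMSO and shControl DMSO. In shControl rapamycin its peak lay beyond the 200 bp limit but carried its name, at 8.26%. CDKN1C, which encodes the inhibitor p57, had no promoter peak in shARID1A rapamycin and weak ones elsewhere, at 76.2% of the list in shARID1A DMSO, 93.6% in shControl rapamycin and 73.9% in shControl DMSO.

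These percentages are ranks. Peaks were ordered in each list by the deposited score, and the rank is given as a percentage of list length, so that a low value is a strong peak. The median over members was 11.4% in shARID1A rapamycin, 11.4% in shARID1A DMSO, 12.7% in shControl rapamycin and 11% in shControl DMSO. Over all genes it was 14.9%, 15%, 14.8% and 14.5% in the same lists.

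Replication genes ranked ahead of cyclin and CDK inhibitor genes in every list. The 9 replication promoters had a median rank of 8.19% in shARID1A rapamycin, 8.48% in shARID1A DMSO, 5.87% in shControl rapamycin and 5.39% in shControl DMSO. The 14 cyclin and CDK inhibitor genes, of which 12 or 13 had a peak, had medians of 20.3%, 16.2%, 19.7% and 18.4% in the same lists. The difference was -12.11 points in shARID1A rapamycin, -7.69 in shARID1A DMSO, -13.82 in shControl rapamycin and -12.99 in shControl DMSO. With peaks taken by name it was -13.45, -4.56, -7.81 and -11.22 points. The ranges of the 2 groups overlapped in every list, and their median widths, 1043 to 1198 bp for replication genes and 994 to 1084 bp for the others, were close.

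Among replication genes PCNA was strongest, at 0.349% in shARID1A rapamycin, 0.446% in shARID1A DMSO, 0.197% in shControl rapamycin and 0.169% in shControl DMSO. It has a pair of annotated TSS, and its strongest peak lay at the upstream one, shared with CDS2, in the shARID1A lists and at the downstream one in the shControl lists. CDT1 was the weakest in all 4 lists, at 30.4%, 41.1%, 31.8% and 44.3% in shARID1A rapamycin, shARID1A DMSO, shControl rapamycin and shControl DMSO. The other replication genes, CDC6 and the 6 MCM genes, lay between 1.22% and 19.2%.

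The mitosis and proliferation genes had medians of 9.43%, 9.68%, 7.42% and 8.81% in shARID1A rapamycin, shARID1A DMSO, shControl rapamycin and shControl DMSO. AURKA, a spindle kinase, and CDC20, an activator of the anaphase-promoting complex, led this group. AURKA had 1.19% and 1.37% in shARID1A rapamycin and DMSO, against 1.61% and 0.542% in shControl rapamycin and DMSO. CDC20 had 0.552% and 1.53% in shARID1A rapamycin and DMSO, against 3.05% and 0.851% in shControl rapamycin and DMSO. Both kept a strong rank in every list, and PLK1 was the weakest of the group.

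Among cyclins and kinases of the first phase of the cycle, CDK4 had 4.25% and 3.14% in shARID1A rapamycin and DMSO, against 3.91% and 3.36% in shControl rapamycin and DMSO. CDK6, its homologue, had 47.6% and 37.2% in shARID1A rapamycin and DMSO, against 32.5% and 46.3% in shControl rapamycin and DMSO. CDK4 was thus the strongest promoter of this group and CDK6 the weakest in every list. CCND1, encoding cyclin D1, had 22.6% and 15.4% in shARID1A rapamycin and DMSO, against 18.8% and 18.5% in shControl rapamycin and DMSO, and CCND3, encoding cyclin D3, lay between 18.4% and 29.9%.

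CDC25A, the phosphatase that activates CDK2, had 2.83% and 1.68% in shARID1A rapamycin and DMSO, against 1.38% and 0.36% in shControl rapamycin and DMSO. It led the E- and A-type cyclin group in every list, in which CDK2 itself lay between 7.16% and 14.4%. Of the RB and E2F genes, E2F1 had 2.21% and 1.66% in shARID1A rapamycin and DMSO, against 4.1% and 3.61% in shControl rapamycin and DMSO. E2F2 had 33.2% and 35.3% in shARID1A rapamycin and DMSO, against 40.4% and 34.2% in shControl rapamycin and DMSO. E2F1 was the strongest of its group in every list, and E2F3 lay between 8.87% and 17.0%.

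The CDK inhibitors covered a wide range. CDKN2C, which encodes p18, had the strongest promoter peak of this group in every list, at 0.136% in shARID1A rapamycin, 0.359% in shARID1A DMSO, 3.56% in shControl rapamycin and 1.18% in shControl DMSO. CDKN1B, encoding p27, lay between 9.59% and 15%, and CDKN2B, encoding p15, between 15.2% and 21.5%. CDKN1A, CDKN2A and CDKN1C were weaker in most lists.

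**Figure D2:**
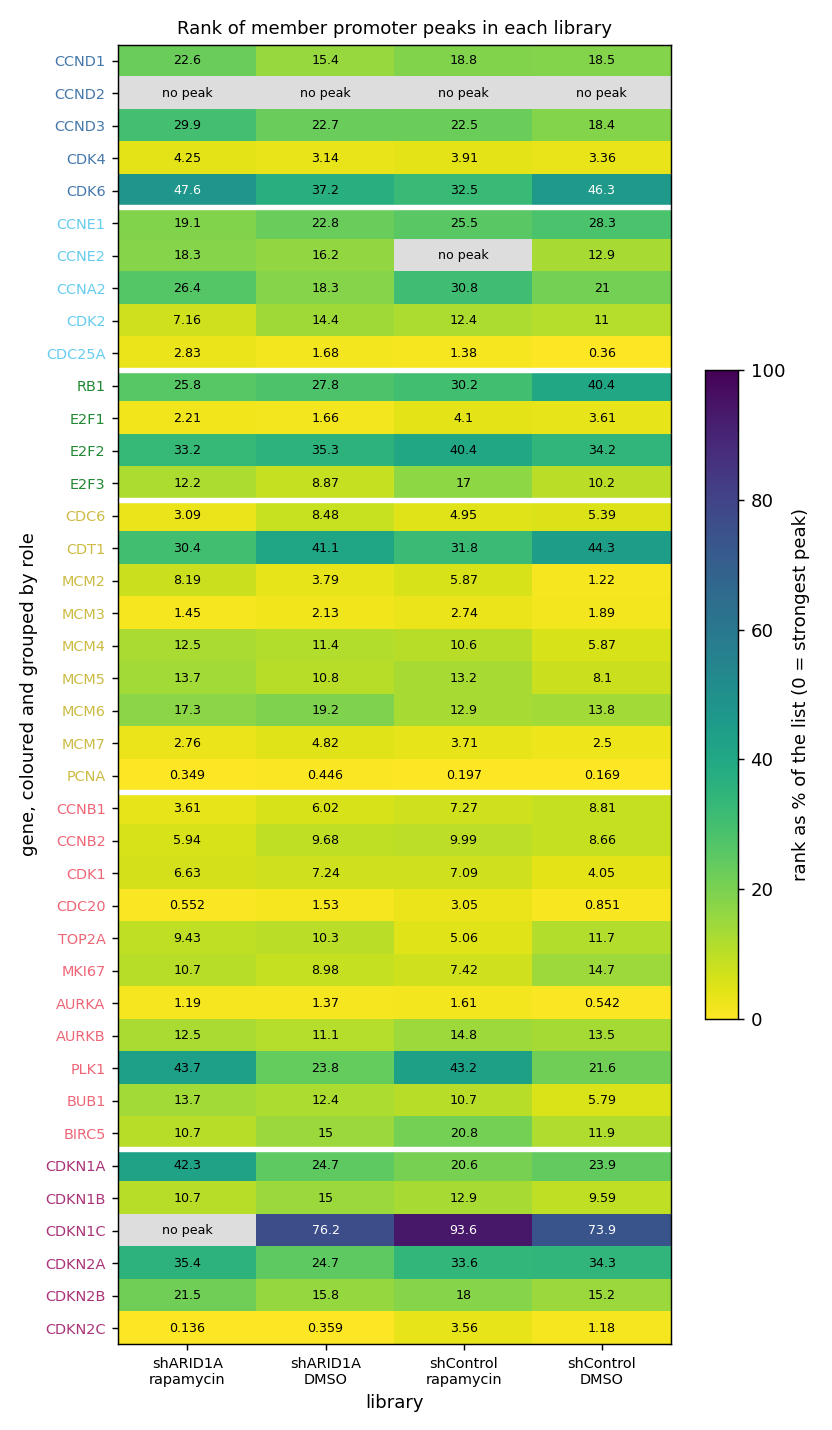
Rank of the promoter peak of each of the 40 genes (rows, grouped by role) in the 4 libraries (columns), as a percentage of the list, where 0 is the strongest peak. Replication and mitosis genes are mostly below 15%, CDT1 and PLK1 are the weakest of their groups, and grey cells are genes with no peak within 200 bp of the TSS; CCNE2 in shControl rapamycin has a peak just beyond that limit.

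Over the 37 members with a peak in all lists, ranks were stable to within 5 points in 12 and within 10 points in 28. The remaining 9 members, CCND3, CDK6, CCNA2, RB1, CDT1, PLK1, BIRC5, CDKN1A and CDKN2A (24.3%), differed by 10 points or more between some pair of lists, beside 27.4% of all 12372 genes with a peak in all lists. A difference of 10 points was taken as the mark of a changed rank in the comparisons that follow, and a positive difference means a weaker rank in the first group named. The comparisons share libraries with one another, except that those within rapamycin and within DMSO share none, nor do those within shARID1A and within shControl.

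Under DMSO, the median rank difference of 39 members between shARID1A and shControl was 0.71 points, beside 0.01 over all genes. RB1 was past 10 points, with the stronger rank in shARID1A, and no member was past 10 in the other direction. Over all genes 8.36% were lower by that much in rank percent and 5.0% higher. The RB1 promoter peak, which lies at the annotated 5′ end of the gene and not at the RB1 entry of the promoter table, was at chr13:48303046-48304315 in shARID1A DMSO. It stood at 27.8% in shARID1A DMSO and 40.4% in shControl DMSO, a difference of -12.61 points. In rapamycin RB1 stood at 25.8% in shARID1A and 30.2% in shControl, so that the weakest RB1 rank of the 4 lists was that of shControl DMSO. With peaks taken by name 1 of 29 members, E2F3, was past 10 points, beside 19.0% of all genes in either direction.

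Under rapamycin, the median rank difference of 37 members between shARID1A and shControl was -0.46 points, beside 0.15 over all genes. CDKN1A and CDK6 were past 10 points with a weaker rank in shARID1A, beside 6.30% of all genes, and BIRC5 with a stronger one, beside 7.17%. CDKN1A encodes p21, the inhibitor induced by p53. Its peak, named for the overlapping noncoding gene DINOL in the shARID1A lists, stood at 42.3% in shARID1A rapamycin, against 20.6% in shControl rapamycin. In DMSO it stood at 24.7% in shARID1A and 23.9% in shControl. The rank of CDKN1A was thus weakest in shARID1A rapamycin and close together in the other 3 lists, with a difference of 21.70 points from shControl rapamycin and of 17.60 points from shARID1A DMSO. Its width was 2040 bp in shARID1A rapamycin, 2297 bp in shARID1A DMSO, 2165 bp in shControl rapamycin and 1784 bp in shControl DMSO, so that the weakest peak was not the narrowest.

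BIRC5, which encodes survivin, stood at 10.7% in shARID1A rapamycin and 20.8% in shControl rapamycin, a difference of -10.09 points. In DMSO it stood at 15% in shARID1A and 11.9% in shControl, in the opposite order. CDK6 stood at 47.6% in shARID1A rapamycin and 32.5% in shControl rapamycin. The sign of its difference, 15.10 points at the downstream TSS, turned to -26.69 points when the peak was taken by name, because in shControl rapamycin the peak within 1000 bp by the deposited distance was a weaker one at the upstream CDK6 TSS. With peaks taken by name 3 of 32 members, CDK6, CCNE2 and BIRC5, were past 10 points, beside 19.1% of all genes in either direction.

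No member was past 10 points in the same direction in both knockdown comparisons. Over all genes 1.11% were higher and 1.77% lower in both.

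Between rapamycin and DMSO, PLK1 and CDT1 differed in both kinds of cell. In shARID1A cells the median rank difference of 38 members was 0.23 points, beside 0.15 over all genes. There 4 members, PLK1, CDKN1A, CDKN2A and CDK6, were past 10 points with a weaker rank in rapamycin, beside 6.41% of all genes, and CDT1 with a stronger one, beside 4.35%. In shControl cells the median difference of 38 members was 1.24 points, beside 0.07 over all genes. There PLK1 and CDKN1C were past 10 points with a weaker rank, beside 6.81% of all genes, and CDK6, CDT1 and RB1 with a stronger one, beside 7.63%. With peaks taken by name, 3 of 27 members in shARID1A cells and 5 of 32 in shControl cells were past 10 points, beside 15.7% and 20.4% of all genes in either direction.

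PLK1 ranked weaker with rapamycin in both kinds of cell. Its promoter peak, at chr16:23678493-23679441 in shARID1A rapamycin, stood at 43.7% there, against 23.8% in shARID1A DMSO, a difference of 19.87 points. In shControl cells it stood at 43.2% in rapamycin, against 21.6% in DMSO, a difference of 21.60 points. The 2 rapamycin values and the 2 DMSO values thus lay close together across the hairpins. The peak was also narrower in rapamycin, at 949 bp in shARID1A rapamycin against 1193 bp in shARID1A DMSO, and at 1169 bp in shControl rapamycin against 1500 bp in shControl DMSO.

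CDT1 ranked stronger with rapamycin in both kinds of cell. It stood at 30.4% in shARID1A rapamycin against 41.1% in shARID1A DMSO, a difference of -10.77 points, and at 31.8% in shControl rapamycin against 44.3% in shControl DMSO, a difference of -12.55 points. Its width changed little, between 1720 and 1944 bp in all lists. PLK1 was the only member past 10 points with a weaker rank in both rapamycin comparisons, and CDT1 the only one with a stronger rank. Over all genes 1.36% were higher and 0.808% lower in both, and these comparisons share no library. These calls rest on ranks among all peaks. With ranks among promoter peaks only, PLK1, CCNA2 and MCM2 were past 10 points with a weaker rank in both comparisons, beside 1.65% of all genes, and no member with a stronger one, beside 1.09%. CDT1 then differed by -9.09 points in shARID1A cells and by -9.45 points in shControl cells.

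CCNA2, encoding cyclin A2, also had a weaker rank with rapamycin in both kinds of cell, short of 10 points among all peaks and past it among promoter peaks. It stood at 26.4% in shARID1A rapamycin against 18.3% in shARID1A DMSO, and at 30.8% in shControl rapamycin against 21.0% in shControl DMSO. Its differences were 8.02 points in shARID1A cells and 9.72 points in shControl cells, and among promoter peaks 12.92 and 13.10 points. MCM2, a helicase subunit, stood at 8.19% in shARID1A rapamycin against 3.79% in shARID1A DMSO, and at 5.87% in shControl rapamycin against 1.22% in shControl DMSO. Its differences were 4.40 points in shARID1A cells and 4.64 points in shControl cells, and among promoter peaks 12.37 and 14.46 points.

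CDKN2A, which encodes p16 and p14ARF, stood at 35.4% in shARID1A rapamycin against 24.7% in shARID1A DMSO. In shControl cells it stood at 33.6% in rapamycin and 34.3% in DMSO, so that shARID1A DMSO had the strongest rank of the 4 lists. CDKN1A, in contrast, differed by 17.60 points in shARID1A cells and by -3.39 points in shControl cells. CDK6 differed by 10.41 points in shARID1A and by -13.74 points in shControl. Whether the rapamycin differences of these genes differ between the hairpins was not tested.

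**Figure D3:**
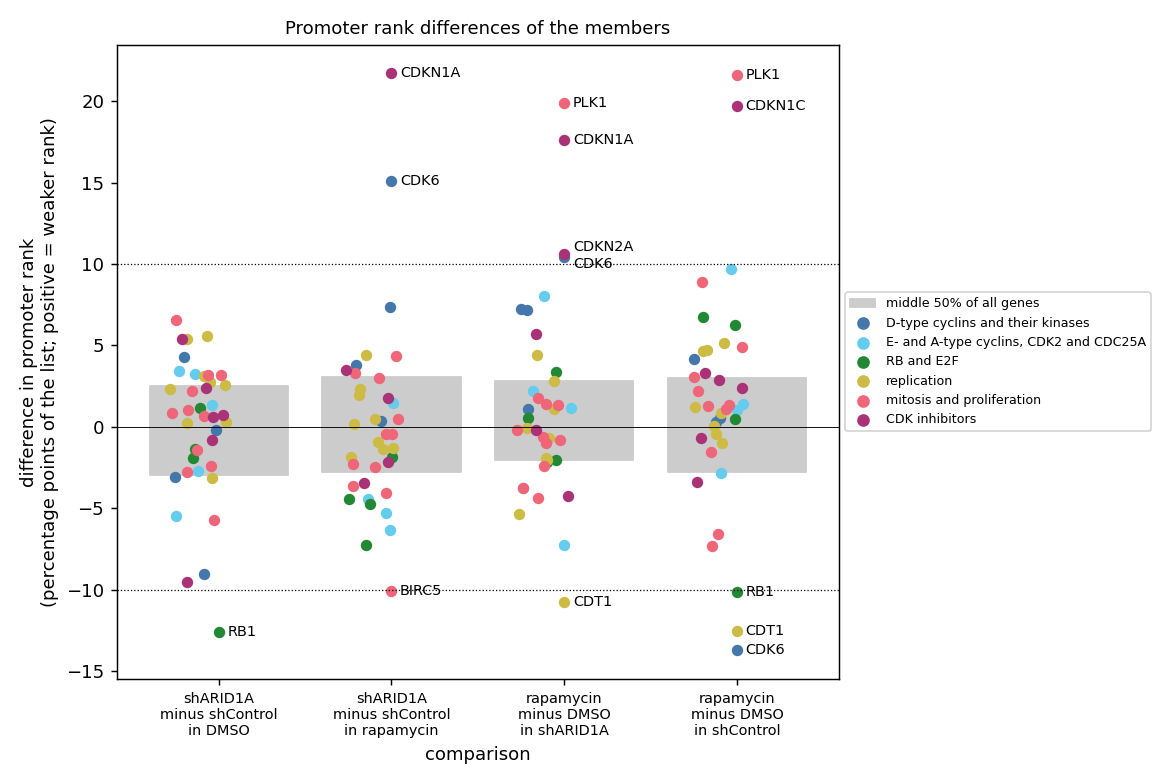
Difference in promoter rank of each member (points, coloured by role) in the 4 comparisons, in percentage points of the list, where positive values are a weaker rank in the first group named. Grey bands hold the middle 50% of all genes, dotted lines mark 10 points, and PLK1 and CDT1 lie beyond the lines on the same side in both rapamycin comparisons.

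Widths of the strongest promoter peak were compared in the same way, with a ratio of 1.5-fold or more taken as changed. In DMSO 2 of 39 members, E2F2 and E2F3, were wider in shARID1A than in shControl, beside 6.86% of all genes, and no member was narrower, beside 1.86%. In rapamycin 3 of 37, E2F1, E2F2 and BIRC5, were narrower in shARID1A than in shControl, beside 5.50%, and none was wider, beside 2.70%. In shARID1A cells 5 of 38, E2F1, E2F2, E2F3, TOP2A and BIRC5, were narrower in rapamycin than in DMSO, beside 5.70%, and none wider, beside 1.92%. In shControl cells 2 of 38, CCNE1 and CDKN1C, were wider in rapamycin, beside 6.25%, and none narrower, beside 1.95%. In DMSO and in shControl cells the members' share was thus below that of all genes. For narrower peaks in rapamycin and in shARID1A cells it was above. Those 2 comparisons share the shARID1A rapamycin library, the counts are small, and the excess was not tested.

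The E2F3 peak measured 1084 bp in shARID1A rapamycin, 2659 bp in shARID1A DMSO, 1320 bp in shControl rapamycin and 947 bp in shControl DMSO. The E2F2 peak measured 941 bp in shARID1A rapamycin, 1860 bp in shARID1A DMSO, 1609 bp in shControl rapamycin and 1088 bp in shControl DMSO. The strongest E2F2 peak was thus widest in shARID1A DMSO. In shControl DMSO, however, a further peak named E2F2 lay in the same merged region at its TSS, beyond the 200 bp limit. It was not summed, so the 1088 bp are only part of the open stretch and the contrast in DMSO depends on that limit. At E2F3 the shARID1A DMSO list held 1 long peak and the other lists 2 peaks each. Summed over these, the E2F3 width was 1915 bp in shARID1A rapamycin, 2659 bp in shARID1A DMSO, 3055 bp in shControl rapamycin and 1734 bp in shControl DMSO, widest in shControl rapamycin. By summed widths E2F3 was not past 1.5-fold between rapamycin and DMSO in shARID1A cells. It was wider in rapamycin in shControl cells, and narrower in shARID1A than in shControl in rapamycin. CDK6 had 2 peaks within the 200 bp limit in shARID1A DMSO and in shControl rapamycin. Its summed width was 1469 bp in shARID1A rapamycin, 1714 bp in shARID1A DMSO, 2972 bp in shControl rapamycin and 1530 bp in shControl DMSO. In both shARID1A lists and in shControl DMSO a further peak near the upstream TSS ended short of that limit. It was not summed, so the contrast depends on the limit. The E2F1 peak measured 517 bp in shARID1A rapamycin, against 1344 bp in shARID1A DMSO, 1245 bp in shControl rapamycin and 1275 bp in shControl DMSO, so that it was narrowest in shARID1A rapamycin. BIRC5 was narrowest there too, at 571 bp, against 1146 bp in shARID1A DMSO, 923 bp in shControl rapamycin and 849 bp in shControl DMSO. By name, 34 members had 35 promoter peaks in shARID1A rapamycin, and which member held the extra peak is not given. A second peak beyond the 200 bp limit was not summed, so at E2F1 and BIRC5 a split peak cannot be told apart from a narrower one. The rank of all 3 E2F promoters differed by under 10 points in every comparison, except that E2F3 was past it in DMSO when the peak was taken by name. Promoter peaks of all genes had median widths of 1094, 1146, 1120 and 1063 bp in shARID1A rapamycin, shARID1A DMSO, shControl rapamycin and shControl DMSO.

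Away from promoters, members had fewer peaks than at promoters, unlike the whole lists. By name there were 24 distal peaks in each of the shARID1A lists and in shControl rapamycin, and 28 in shControl DMSO. Promoter peaks by name numbered 35 and 30 in shARID1A rapamycin and DMSO, and 36 and 33 in shControl rapamycin and DMSO. Distal peaks of the whole lists numbered 31937, 32633, 36850 and 39142 in the same order. Of the 40 regions described next, 11 lay at cyclin genes and 11 at E2F genes. Overlapping ones were merged into regions. Regions within 1000 bp of a TSS of the member itself, at CDK1, CDK6, CDKN2C, E2F2 and E2F3, were then left out, though the counts by name include them. This left 40 regions at 17 of the 40 genes. Open in shARID1A rapamycin, shARID1A DMSO, shControl rapamycin and shControl DMSO were 24, 25, 27 and 29 of them, when any overlapping peak counted. Of the 40 regions 23 were intergenic, 12 intronic, 2 exonic, 2 at gene ends and 1 at the promoter of another gene, by the deposited annotation. Within 10 kb of the member's TSS lay 11, and 37 lay within 50 kb. In all 4 lists 16 were open (40%), beside 34.5% of all 53930 distal regions, and 12 were in 1 list.

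Replication genes had fewer distal regions than cyclin and CDK inhibitor genes. The 9 replication genes held 5 regions at 4 genes, CDC6, CDT1, MCM3 and MCM5, none within 10 kb, with the nearest 19089 bp from its TSS. The 14 cyclin and CDK inhibitor genes held 15 regions at 7 genes, of which 8 lay within 10 kb, with the nearest at 2095 bp. Open regions per replication gene numbered 0.444 in shARID1A rapamycin, 0.333 in shARID1A DMSO, 0.333 in shControl rapamycin and 0.444 in shControl DMSO. Per cyclin or CDK inhibitor gene they numbered 0.571, 0.786, 0.714 and 0.857 in those lists. Between lists these numbers differ by 1 region for the replication genes and by 1 to 4 for the others. Cyclin genes alone held 0.875, 1, 1 and 1 regions per gene in the same lists. CDK inhibitor genes alone held 0.167, 0.5, 0.333 and 0.667. The CDK inhibitors were thus below the replication genes in shARID1A rapamycin and level with them in shControl rapamycin. Counted by name, distal peaks numbered 0.444, 0.111, 0.222 and 0.222 per replication gene in the same lists. Per cyclin or CDK inhibitor gene they numbered 0.571, 0.714, 0.571 and 0.786. The region of CDC6 was named RARA in every list but shARID1A rapamycin. The CDT1 region open in all lists was named PIEZO1 in both DMSO lists.

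The strongest distal region in 3 of the lists lay in an exon of CCND1, 2095 bp downstream of its TSS at chr11:69642801-69643702, and that in shControl rapamycin lay at CCNE1. It ranked at 4.96% in shARID1A rapamycin, 7.21% in shARID1A DMSO, 11.6% in shControl rapamycin and 5.51% in shControl DMSO, ahead of the CCND1 promoter itself in every list. CCND1 held 3 other regions, of which that 2203 bp upstream was open in all lists at 23.3% to 31.4%. CCNE1 held 4, the strongest 32880 bp downstream at chr19:29844098-29845645. It ranked at 8.64%, 7.26%, 5.79% and 6.43% in shARID1A rapamycin, shARID1A DMSO, shControl rapamycin and shControl DMSO, also ahead of its promoter, which stood at 19.1% and 22.8% in shARID1A rapamycin and DMSO, against 25.5% and 28.3% in shControl rapamycin and DMSO.

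E2F3 held 5 distal regions, E2F2 and MKI67 4 each, and CDK6 2. The strongest of MKI67, which encodes the proliferation antigen Ki-67, lay 23921 bp upstream and ranked at 17.1% and 18.5% in shARID1A rapamycin and DMSO, against 18.0% and 18.4% in shControl rapamycin and DMSO. Of the E2F2 regions the strongest, 47068 bp downstream of the TSS, was annotated as a promoter, and was named for ASAP3 in 3 lists and for E2F2 in 1. The 5 E2F3 regions lay 33766 to 67296 bp upstream and ranked at 40% or weaker. CDK6 held an intronic region 23973 bp downstream in all lists, at 46.7% and 45.9% in shARID1A rapamycin and DMSO, against 39.2% and 31.2% in shControl rapamycin and DMSO.

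Distal peaks of members were lost and gained at shares near those of all distal peaks. In DMSO, 10 of 28 distal peaks of shControl (35.7%, exact 95% interval 18.6 to 55.9) were lost in shARID1A, beside 34.9% of all, and 7 of 24 of shARID1A (29.2%, 12.6 to 51.1) were gained, beside 22.1%. Of the 10, 7 lay where the shARID1A DMSO list skips peak numbers. In rapamycin, 7 of 24 (29.2%, 12.6 to 51.1) were lost in shARID1A, beside 33.8%, and 5 of 24 (20.8%, 7.13 to 42.2) were gained, beside 23.0%. These intervals cover counting error only. The peaks counted here include those at a TSS of the member itself. Without them, 10 of 23 (43.5%) were lost and 6 of 22 (27.3%) gained with knockdown in DMSO. In rapamycin 7 of 22 (31.8%) were lost and 5 of 21 (23.8%) gained. The share of all distal peaks is not given for that setting.

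For rapamycin against DMSO, 6 of 24 distal peaks (25%, 9.77 to 46.7) were lost in shARID1A, beside 27.1%, and 5 of 24 (20.8%, 7.13 to 42.2) were gained, beside 25.2%. In shControl 7 of 28 (25%, 10.7 to 44.9) were lost, beside 27%, and 4 of 24 (16.7%, 4.74 to 37.4) were gained, beside 23.0%. Each background share lay inside the interval of the members. Without peaks at a TSS of the member itself, 5 of 22 (22.7%) were lost and 5 of 21 (23.8%) gained in shARID1A. In shControl 7 of 23 (30.4%) were then lost and 4 of 22 (18.2%) gained. Of promoter peaks, that of CDKN1C was lost in shARID1A rapamycin, 1 of 36 of shControl rapamycin, beside 6.41% of all promoter peaks, and 1 of 30 of shARID1A DMSO, beside 6.50%. No other promoter peak of a member was lost or gained. The background of the other promoter counts was 5.82% lost and 6.56% gained with knockdown in DMSO, 5.41% gained with knockdown in rapamycin, 4.51% gained with rapamycin in shARID1A, and 5.81% lost and 5.72% gained with rapamycin in shControl.

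Regions that followed the hairpin in both treatments were few. Open in both shControl lists and in neither shARID1A list were 4 of 40, beside 6.44% of all distal regions. These lay 40255 bp upstream of CCNE1 (chr19:29771508-29771964), 8843 bp upstream of CDK1 (chr10:60769028-60769948), and 52339 and 34559 bp upstream of E2F3 (chr6:20348997-20350083 and chr6:20366991-20367650). The CDK1 region ranked at 65.3% in shControl rapamycin and 59.9% in shControl DMSO, and the E2F3 region at 52339 bp at 72.9% and 57.9%. Both lay in stretches where shARID1A DMSO skips peak numbers. The CCNE1 region ranked at 81.2% and 69.0% and the nearer E2F3 region at 95% and 80.4% in shControl rapamycin and DMSO. All 4 thus lay in the weaker part of their lists.

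Open in both shARID1A lists and in neither shControl list was 1 region of 40, beside 2.08% of all. It lay 47905 bp downstream of the MKI67 TSS, at chr10:128078111-128078925, and was annotated as intronic. It ranked at 58.7% in shARID1A rapamycin and 47.8% in shARID1A DMSO. By treatment, 1 region, 12768 bp upstream of CDKN1B, was open in both DMSO lists alone, at 34.1% in shARID1A and 55.8% in shControl, beside 2.35% of all regions. None was open in both rapamycin lists alone, beside 1.86%.

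**Figure D4:**
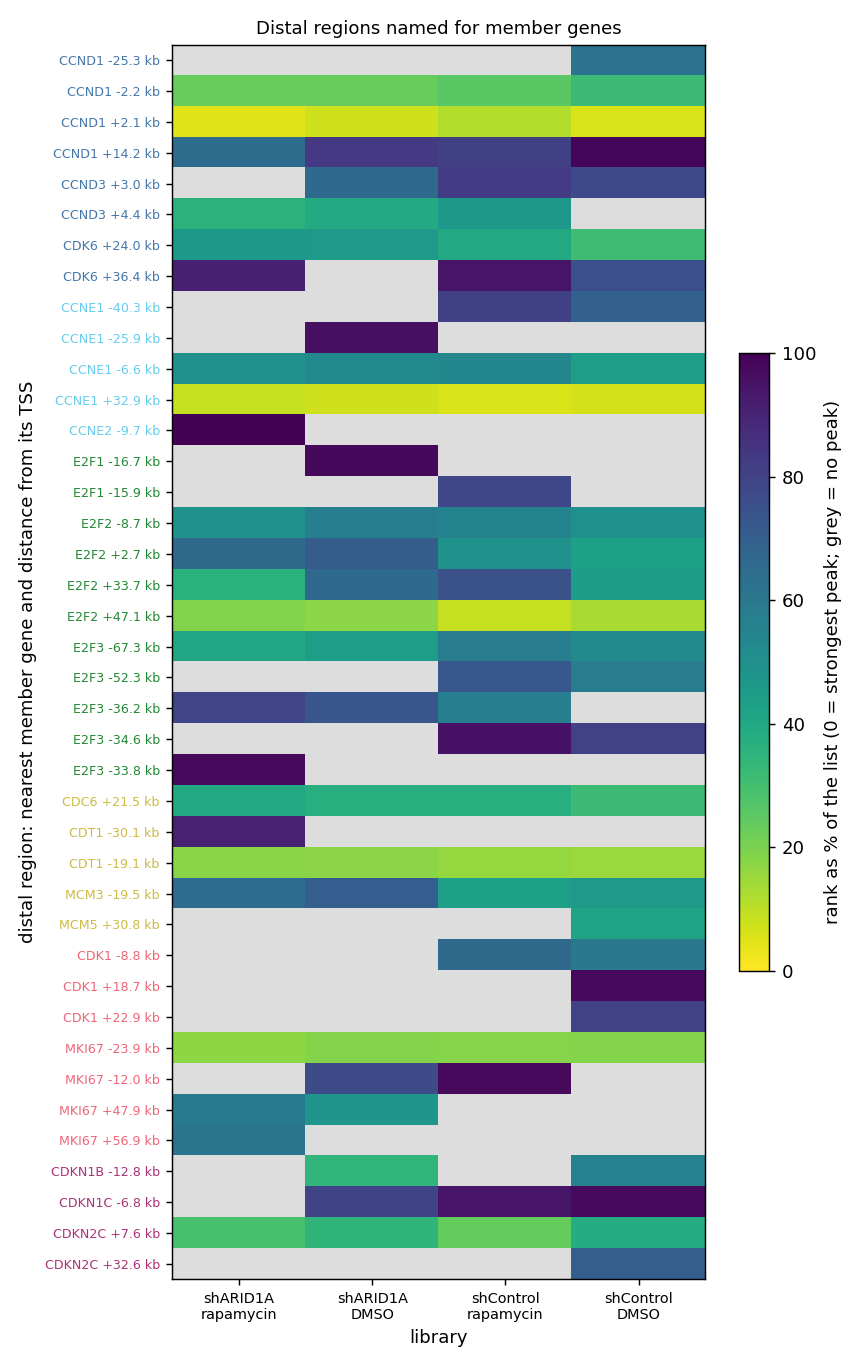
Rank of the 40 distal regions (rows, with the nearest member gene, coloured by role, and the distance from its TSS in kb) in the 4 libraries (columns), as a percentage of the list, where 0 is the strongest peak and grey means no peak. Regions ranked within 20% are open in all 4 lists, and most of those missing from a list are weak where they are present.

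Other genes of the pathway, 71 in number and covering origin recognition, replication forks, further E2F and DREAM subunits and mitotic factors, were open as well. Of 61 with a TSS in the promoter table, 60, 61, 60 and 61 had a promoter peak in shARID1A rapamycin, shARID1A DMSO, shControl rapamycin and shControl DMSO, with median ranks of 8.11%, 9.34%, 9.46% and 9.27%. The gap was LIN54, a DNA-binding DREAM subunit, which had no promoter peak in either rapamycin list and stood at 52.7% in shARID1A DMSO and 78.8% in shControl DMSO, a difference of -26.10 points. LIN9, another DREAM subunit, stood at 28.8% in shARID1A DMSO against 39.9% in shControl DMSO. GINS3, a helicase cofactor, stood at 35.8% in shARID1A DMSO against 26.1% in shControl DMSO. In DMSO 2 of the 61, LIN54 and LIN9, were past 10 points with a stronger rank in shARID1A and 0 with a weaker one, beside 8.36% and 5.0% of all genes.

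In rapamycin 1 of 60, E2F4, was past 10 points with a weaker rank in shARID1A, and 0 with a stronger one, beside 6.30% and 7.17% of all genes. E2F4, a repressive E2F, stood at 28.2% in shARID1A rapamycin and 16.0% in shControl rapamycin. CDC7, a kinase that fires origins, stood at 8.1% in shARID1A rapamycin against 17.4% in shControl rapamycin. RRM1, a subunit of ribonucleotide reductase, stood at 18.1% in shARID1A rapamycin against 10.8% in shControl rapamycin. For rapamycin against DMSO, 1 of 60 was past 10 points with a weaker rank and 1 with a stronger one in each kind of cell. Over all genes these shares were 6.41% and 4.35% in shARID1A cells and 6.81% and 7.63% in shControl cells.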

How the data were processed

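ATAC-seq libraries came from Huh7 cells with a control hairpin or a hairpin against ARID1A, in DMSO or rapamycin, with 1 library per group. The submitters' processing notes name BWA, MACS2 2.0 and the build GRCh38 (hg38). The notes do not state settings, transposase offset, duplicates and mitochondrial reads, which, like read depth, were not given in the sources used here. The peak score is the value the authors deposited, its scale is not stated, and it only ranked peaks within a list. Positions, distances to the nearest TSS and nearest genes were used as the authors deposited them, per the file headers.

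A promoter peak by name was centred within 1000 bp of the nearest TSS by the deposited distance and carried the member's name. This rule gave counts and the share of peaks lost or gained. The deposited nearest gene of 1 peak changed between lists at divergent promoters, so the strongest peak within 200 bp of a TSS of the member was also taken. The TSS came from the RefSeq promoter table for 31 members, with the RefSeq gene end added for 5 of them (RB1, CCND3, AURKB, CDKN1A and CDKN2B). For 8 it was the gene end, with the strand read from the deposited distances, and for CCND2 both gene ends. Values of single genes follow this position rule, chosen after seeing the data.

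A rank percent is the rank by score as a percentage of list length. Peaks were called lost or gained where they shared not even 1 bp with a peak of the list compared. Member distal peaks that overlap between lists were merged into regions, leaving out regions within 1000 bp of a TSS of the member itself. Genes named in full were those with no promoter peak in some list, those past 10 points in a comparison, the 6 with most distal peaks and the strongest and weakest promoter of each role. The members and lists were chosen with earlier results of these data known. No p-value was computed. Python 3.11.15, pandas 2.3.3, NumPy 2.4.6, SciPy 1.17.1 and matplotlib 3.10.9 were used, and the steps were tested on simulated data. Alternatives in window, ranking, overlap, peak number and assignment are given in the closing section.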

Additional observations from a re-analysis of the deposited data

Results flagged for a closer look

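The CDK6 promoter peak stood apart because its rank differed between rapamycin and DMSO in opposite directions in the 2 kinds of cell. It differed by 10.41 points in shARID1A cells, at 47.6% of the list in rapamycin against 37.2% in DMSO. In shControl cells it differed by -13.74 points, at 32.5% in rapamycin against 46.3% in DMSO. With 1 library per group this difference was not tested. CDK6 has a pair of annotated TSS, and with the peak taken by its deposited name the value in shControl cells was 28.06 points, the same sign as in shARID1A cells.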

How the results depend on the processing

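No paired analysis was possible because each group holds 1 library, and for the same reason no library could be left out. Of 280 recomputed values, 238 stayed within the tolerance, which was 5 points for a rank difference, 1.5-fold for a count or width and the exact 95% interval for a share. The sign changed in 8. Of these, 2 were past 10 points before, both of CDK6 with the peak taken by name, at -26.69 points for knockdown in rapamycin and 28.06 points for rapamycin in shControl, where a peak at another TSS was taken. The other 6 were differences under 10 points, of PLK1, CDKN1A, CDKN1C and CDKN2A. With equal numbers of top-ranked peaks, knockdown in DMSO gave -8.31 points for CDKN1C, against 2.35, -2.75 for CDKN1A, against 0.71, and -0.88 for PLK1, against 2.20. Knockdown in rapamycin gave -4.38 for PLK1, against 0.47, and -2.00 for CDKN2A, against 1.77. Among promoter peaks only, rapamycin in shControl gave 0.07 for CDKN2A, against -0.68.

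The number of members past the rank threshold by name was 1 of 29 for knockdown in DMSO and 3 of 32 for knockdown in rapamycin. It was 3 of 27 for rapamycin in shARID1A and 5 of 32 for rapamycin in shControl. In the same order it was 8, 7, 7 and 11 with a threshold of 5 points, and 6, 9, 9 and 9 with ranks among promoter peaks only. The share of all genes past these settings is not given, so the larger counts have no background and are no result about the members. By position the number past 10 points was 5 of 38 for rapamycin in shARID1A, beside 10.8% of all genes in either direction. Replication genes minus cyclin and CDK inhibitor genes came to -33.07, -11.11, -17.43 and -27.42 points among promoter peaks only in shARID1A rapamycin, shARID1A DMSO, shControl rapamycin and shControl DMSO, and to -13.82 by position in shControl rapamycin.

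In the stronger 50% of the lists the share of distal peaks lost was 7.14% (1 of 14) for knockdown in DMSO and 0% (0 of 11) for knockdown in rapamycin. It was 9.09% (1 of 11) for rapamycin in shARID1A and 7.14% (1 of 14) for rapamycin in shControl. The share gained was 18.2% (2 of 11) for knockdown in DMSO and 0% in the other comparisons. The share of all distal peaks is not given for this setting, so these small counts have no background beside them. Leaving out skipped stretches, the share lost for knockdown in DMSO was 14.3%. Distal peaks per replication gene in the stronger 50% numbered 0.222 in shARID1A rapamycin, 0 in shARID1A DMSO and 0.222 in both shControl lists. Per cyclin or CDK inhibitor gene they numbered 0.429 in both shARID1A lists, 0.286 in shControl rapamycin and 0.429 in shControl DMSO. The contrast was smallest in shControl rapamycin, with 2 peaks at replication genes and 4 at the others. By position there were 0.333 per replication gene in shARID1A DMSO, against 0.111 by name, and 0.444 in shControl DMSO, against 0.222 by name. Apart from the change of peak, region or stretch that each setting makes, the cause was not tested. Read depth was unknown, and 1 library per group gives no error for any rank.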
